A study of Mus musculus with 12 samples.

Results

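The unfolded protein response and the integrated stress response were followed here through 36 genes, chosen by name as endoplasmic reticulum (ER) chaperones, genes of ER-associated degradation (ERAD), stress sensors, and targets of the transcription factors ATF4 and CHOP. All 36 were among the 18903 genes of the deposited count table, and all 36 were among the 17938 genes tested. They comprised 10 chaperones and co-chaperones of the ER lumen, 5 enzymes of disulphide bond formation or exchange in the ER, 4 ERAD genes, 3 sensors with the transcription factor *Xbp1*, 4 ATF4-arm regulators, 7 downstream targets and 2 inducible cytosolic HSP70 genes.

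RNA-seq was performed on primary astrocytes cultured from the brains of mice at postnatal day 1 (P1), P6 and P8, with 2 libraries labelled as biological replicates for each genotype at each age, 12 libraries in all. Conditional knockout (cKO) mice were hGFAP-Cre :: *Rack7* fl/fl, in which exons 3 and 4 of *Rack7* (the table's *Zmynd8*, coding for a chromatin reader protein) lie between loxP sites, and the controls (WT) were hGFAP-Cre :: *Rack7* +/+ mice, so that Cre was carried by both genotypes. The human GFAP promoter drives Cre in neural stem cells that give rise to neurons and glia of the cortex and hippocampus, whereas the cultures were labelled only as brain. The meninges had been stripped. The cells had been grown in culture, shaken to remove microglia and oligodendrocytes, and then grown further until confluent. P1, P6 and P8 are therefore the ages of the donor mice and not of the cells at harvest. The comparison asks how loss of RACK7 changes gene expression in astrocytes cultured from mice of these ages.

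Proteins of the secretory pathway fold in the ER with the help of chaperones and disulphide isomerases. When unfolded proteins accumulate, the sensors IRE1 (*Ern1*), ATF6 (*Atf6*) and PERK (*Eif2ak3*) raise chaperone and ERAD gene expression through spliced XBP1 and cleaved ATF6. PERK and the other eIF2α kinases also slow translation in general while favouring that of *Atf4*, whose product raises amino acid synthesis, transport and redox genes and, with CHOP (*Ddit3*), genes that restore translation or promote cell death. In cultured astrocytes these pathways respond to amino acid supply, secretory load and handling.

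Library totals ranged from 54413504 to 89183250 counts. Between replicates the Spearman correlation was 0.991 to 0.993, and the chi-square of their counts over its degrees of freedom was 30.5 to 47.1, so no library repeats another. Counts of *Zmynd8* were higher in the libraries labelled cKO at each age (log2 fold change 0.65, 1.04 and 0.70 at P1, P6 and P8). These counts cover the whole gene and do not test whether exons 3 and 4 were lost, so cKO and WT denote the labels of the libraries throughout. In primary astrocytes the paper checked RACK7 protein by immunoblot and found far fewer RACK7 binding peaks by ChIP-seq in cKO than in WT. The 10 genes of the astrocyte marker list summed to 971 to 2546 CPM (counts scaled to a common library size and for library composition). Markers of other cell types were also present. In every library, 10 microglia genes (3024 to 6074 CPM) and 4 mural genes (2485 to 4545 CPM) each summed above the astrocyte genes. Such sums do not measure shares of cells. The summed CPM of 8 fibroblast genes was 357 to 370 in P1 WT and 2423 to 2451 in P1 cKO, 6881 to 6935 in P6 WT and 2399 to 2576 in P6 cKO, and 25793 to 25934 in P8 WT and 8135 to 8393 in P8 cKO. The fibroblast genes moved with genotype at each age, upward at P1 and downward at P6 and P8, and their part in the results below was not tested.

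Stretches upstream of the transcription start are shown for members with a known stress element there, since these elements are the sequences through which the 3 sensors and ATF4 act. Promoters ran from 250 bases before to 50 bases after the RefSeq start (GRCm38.p6) and were found for 33 of the 36 genes. Both strands were searched for the ER stress element ERSE (CCAAT and CCACG with 9 bases between them, bound by NF-Y with ATF6 or XBP1), for ERSE-II (ATTGG and CCACG with 1 base between them), for the core of the C/EBP-ATF element bound by ATF4 dimers (CARE core, TGATGNAA), for the XBP1 core TGACGTGG and for the heat shock element (GAA, TTC and GAA with 2 bases between neighbours). Capitals mark the fixed letters of a match. A match read on the opposite strand appears as its reverse complement, such as CGTGG before ATTGG for ERSE.
Hspa5, chr2:34771840-34772089, plus strand: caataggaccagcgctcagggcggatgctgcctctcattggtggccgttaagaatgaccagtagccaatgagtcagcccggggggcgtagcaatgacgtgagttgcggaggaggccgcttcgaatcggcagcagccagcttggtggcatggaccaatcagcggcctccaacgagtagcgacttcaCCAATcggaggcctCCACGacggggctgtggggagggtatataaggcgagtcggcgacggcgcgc
Hsp90b1, chr10:86705523-86705666, minus strand: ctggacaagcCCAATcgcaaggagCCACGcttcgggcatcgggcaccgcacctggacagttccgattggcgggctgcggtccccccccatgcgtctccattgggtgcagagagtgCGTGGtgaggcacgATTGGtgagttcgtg
Calr, chr8:84847065-84847103, minus strand: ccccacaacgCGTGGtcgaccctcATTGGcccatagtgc
Canx, chr11:50325790-50325828, minus strand: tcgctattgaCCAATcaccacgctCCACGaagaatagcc
Dnajc3, chr14:118937817-118937855, plus strand: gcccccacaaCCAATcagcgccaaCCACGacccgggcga
Pdia6, chr12:17266481-17266519, plus strand: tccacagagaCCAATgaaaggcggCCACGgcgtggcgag
Creld2, chr15:88819510-88819548, plus strand: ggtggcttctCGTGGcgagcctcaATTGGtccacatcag
Syvn1, chr19:6046522-6046560, plus strand: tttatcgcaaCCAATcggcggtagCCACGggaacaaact
Herpud1, chr8:94386307-94386397, plus strand: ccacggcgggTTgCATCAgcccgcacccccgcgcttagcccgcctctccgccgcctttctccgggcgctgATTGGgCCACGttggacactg
Chac1, chr2:119351029-119351076, plus strand: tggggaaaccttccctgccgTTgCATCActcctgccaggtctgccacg
Asns, chr6:7693210-7693252, minus strand: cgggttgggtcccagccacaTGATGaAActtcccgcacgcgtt
ERSE was found in 8 of the 33 member promoters, namely those of *Hspa5*, *Hsp90b1*, *Calr*, *Canx*, *Dnajc3*, *Pdia6*, *Creld2* and *Syvn1*, against 0.137% of 27025 genes. The *Hsp90b1* promoter held 2 copies, on opposite strands. ERSE-II was found in *Herpud1* and *Dnajb11*, against 0.0444% of genes. The CARE core was found in *Asns*, *Chac1*, *Herpud1* and *Trib3*, against 4.51% of genes. The matches of *Dnajb11* and *Trib3* lay downstream of the start, so their sequences are not shown. *Herpud1* was the member with both ERSE-II and the CARE core. The XBP1 core was in 0.714% and the heat shock element in 0.662% of genes, and these letters were not found in the member promoters. ERSE contains the CCAAT box, which alone was in 27 of the 33 member promoters and in 41.1% of genes. A match is a description of the sequence and not a measured binding site.

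The 36 genes were all expressed, with means over the 12 libraries of 7.01 to 1162 CPM, a scale that also reflects transcript length. Per kilobase of exon, the ER folding machinery led. *Calr* (calreticulin, a lectin chaperone that also stores calcium) had a mean of 403 CPM per kilobase, *Pdia3* 283, *Hsp90b1* 243, *Canx* 183 and *Hspa5* 179. The lowest levels per kilobase belonged to *Hspa1a* (3.17), *Trib3* (3.30), *Hspa1b* (4.07) and *Chac1* (4.29). The highest of the 6 group means lay in P8 WT for 13 genes, in P6 cKO for 9 and in P8 cKO for 8. The lowest lay in P1 WT for 15 genes. The use of strand in counting was not stated, so reads on exons shared with a second gene are of uncertain origin. The longest such overlaps with a gene on the other strand covered 415 bases of *Hsp90b1*, 485 of *Eif2ak3* and 564 of *Hspa1a*.

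Genotype differences among the 36 genes were few and upward at P1, mostly upward at P6, and split between the directions at P8. At P1, 6 genes were higher in cKO (16.7% of the 36, against 6.54% of all genes tested), namely *Hsp90b1*, *Atf4*, *Atf5*, *Chac1*, *Asns* and *Ppp1r15a*. That count was 12 by DESeq2, 3 without P1 WT replicate 1 or P1 cKO replicate 2, and 10 without either P6 cKO library. None was lower at P1 by edgeR (2.94% of all genes), with 1, *Sel1l*, lower at an unadjusted p below 0.05 and by DESeq2. At P6, 13 genes were higher and 4 lower, against 13.2% and 12.5% of all genes. With the P6 libraries fitted alone, 8 were higher and 2 lower, and 1 was lower without P6 cKO replicate 2 and 2 without P6 WT replicate 2. At P8, 11 were higher and 12 lower, against 19.6% and 14.8%, with 6 higher without P8 cKO replicate 1 and 7 without P8 WT replicate 1 or P8 cKO replicate 2. A gene was called when its adjusted p (Benjamini-Hochberg over all genes tested, edgeR's quasi-likelihood test) was below 0.05. Among the 12169 genes with a mean of at least 5 CPM, a level that all 36 genes reached and a limit chosen after the data were seen, 7.85% were called higher and 3.83% lower at P1. The shares were 15.7% higher with 15.6% lower at P6 and 24.1% higher with 18.0% lower at P8. Of the 36 genes, 36.1% were higher at P6 and 33.3% lower at P8. In bulk cultures, fewer cells of a type and less RNA per cell cannot be told apart.

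**Figure D1:**
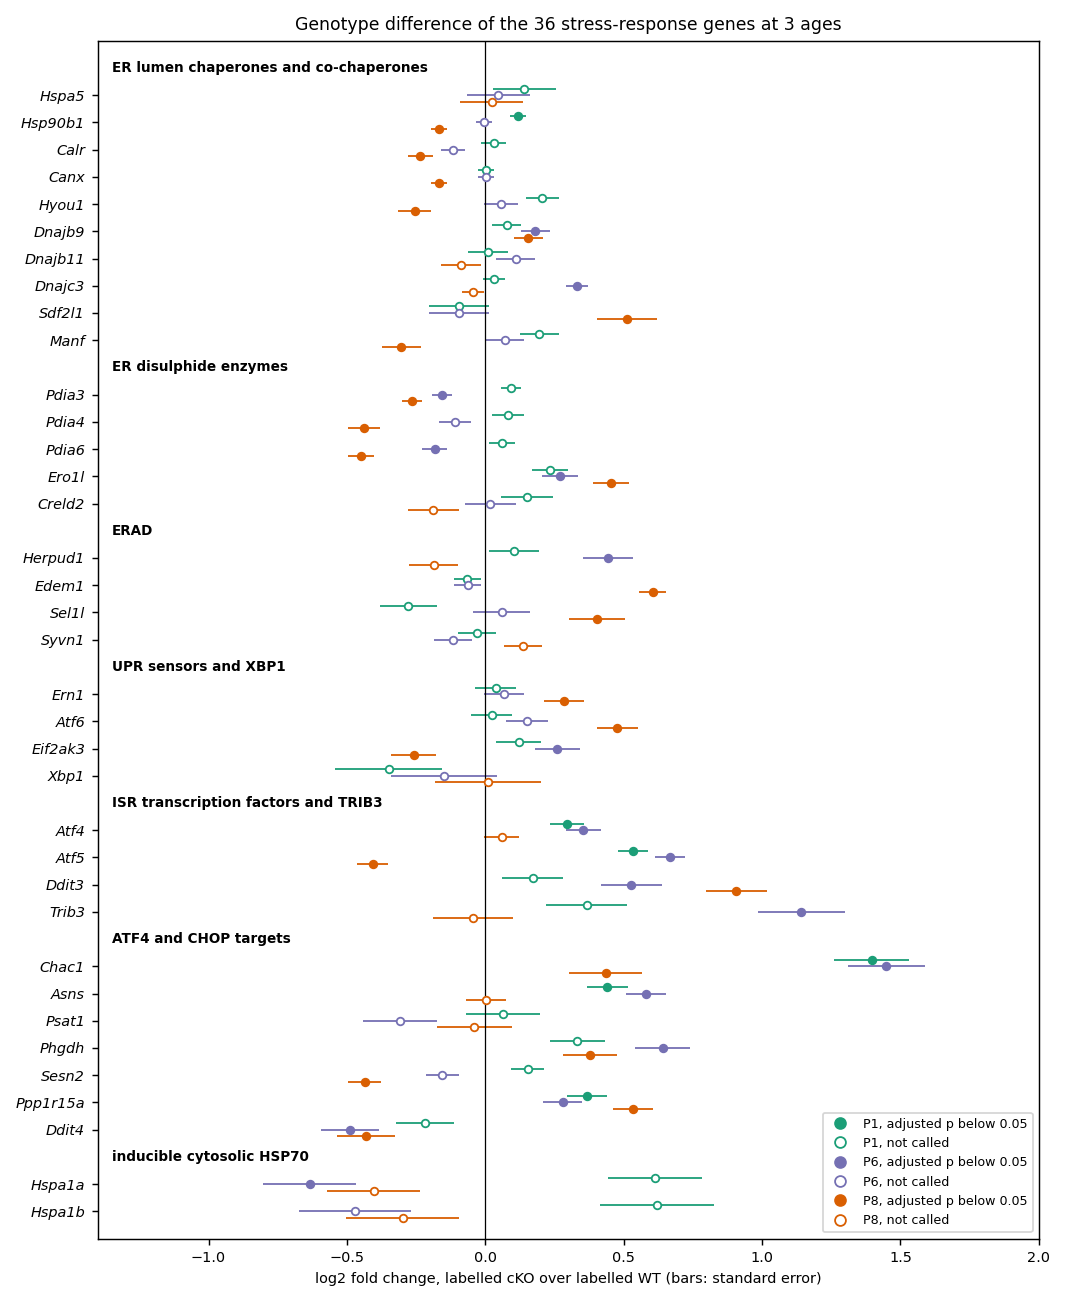
Each point is the log2 fold change of a gene between libraries labelled cKO and WT at P1, P6 or P8 (2 libraries per group), with its standard error, and filled points had an adjusted p below 0.05. *Chac1* lies farthest to the right at P1 and P6 (1.40 and 1.45), and the disulphide isomerases *Pdia3*, *Pdia4* and *Pdia6* lie to the left at P8 (-0.26, -0.44 and -0.45).

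Most of these differences were small. The study's cut-off, an unadjusted p below 0.05 with a fold change of at least 1.5, was passed by 3 higher genes at P1 (6.39% of all genes higher and 2.48% lower), by 4 higher and 1 lower at P6 (8.95% and 7.94%), and by 2 higher, *Ddit3* and *Edem1*, at P8 (12.7% and 9.71%). The median log2 fold changes over the 36 genes at P1, P6 and P8 were 0.11, 0.06 and -0.05, beside 0.00, 0.00 and 0.01 over all genes tested. The 2 cKO libraries lay above both WT libraries for 22 genes at P1, 14 at P6 and 13 at P8, where 25.8%, 29.7% and 36.9% of all genes did so. They lay below for 4, 12 and 18 genes, where 25.4%, 29.3% and 33.8% of all genes did. The smallest 2-sided p of an exact permutation test of 2 against 2 libraries is 0.333, so calls rest on the spread that the fit shared across genes and groups.

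The largest called upward difference at each age lay in the ATF4 arm, in *Chac1* at P1 and P6 and in *Ddit3* at P8. *Atf4* itself, the master transcription factor of the integrated stress response, stood at 139 and 148 CPM in P1 WT, 177 and 175 in P1 cKO, 151 and 159.8 in P6 WT, 211 and 186 in P6 cKO, 148 and 148 in P8 WT and 153 and 156 in P8 cKO. The cKO libraries lay above the WT libraries at all 3 ages. The difference was called at P1 (log2 fold change 0.30 ± 0.063, adjusted p = 0.0187) and at P6 (log2 fold change 0.35 ± 0.063, adjusted p = 0.0028), and it was 0.06 at P8 (adjusted p = 0.527). Here and below the value after ± is the standard error. The P1 call was lost without P1 WT replicate 1, P1 cKO replicate 1 or P1 cKO replicate 2 (adjusted p up to 0.127, log2 fold change 0.25 to 0.34). Ranges of this kind cover the removal of each of the 12 libraries in turn.

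*Atf5*, a relative of ATF4 whose translation is also favoured when eIF2α is phosphorylated, reversed its difference with age. It stood at 73.7 and 80.1 CPM in P1 WT, 114 and 109 in P1 cKO, 73.7 and 77.5 in P6 WT, 123 and 117 in P6 cKO, 188 and 190.4 in P8 WT and 142 and 144 in P8 cKO. The groups did not overlap at any age, and WT rose above cKO between P6 and P8. *Atf5* was 1.45-fold and 1.59-fold higher in cKO at P1 and P6 (adjusted p = 0.000317 and 2.45e-05) and stood at 0.754-fold of WT at P8 (adjusted p = 0.000346). Exons of *Atf5* (chr7:44812256-44816658) overlap those of *Nup62* and *Il4i1* on the other strand over 82 bases.

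*Ddit3*, which encodes CHOP, a transcription factor linked to cell death under prolonged ER stress, stood at 35.2 and 34.5 CPM in P1 WT, 41.3 and 37.1 in P1 cKO, 21.2 and 20.2 in P6 WT, 33.5 and 26.2 in P6 cKO, 19.7 and 19.6 in P8 WT and 36.7 and 37.1 in P8 cKO. WT levels fell after P1 while P8 cKO lay near the P1 level. The difference was 0.17 ± 0.11 at P1 (adjusted p = 0.434), 0.53 ± 0.11 at P6 (adjusted p = 0.00702) and 0.91 ± 0.11 at P8 (adjusted p = 0.000197). At P8 *Ddit3* was 1.88-fold higher in cKO. With the P6 libraries fitted alone, the P6 difference had an adjusted p of 0.0584 (edgeR). The exons of *Ddit3* overlap those of *Mars*, on the other strand, over 68 bases, and those of a further annotated *Ddit3* gene over 105 bases.

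*Trib3*, a pseudokinase that restrains ATF4 and CHOP activity, varied most with age among the 4 regulators of this arm. It stood at 5.72 and 5.27 CPM in P1 WT, 6.72 and 7.44 in P1 cKO, 1.36 and 1.61 in P6 WT, 3.03 and 3.52 in P6 cKO, 13.8 and 11.3 in P8 WT and 12.4 and 11.9 in P8 cKO. Both P6 WT libraries were below every other library, and the P8 groups overlapped. The genotype difference was called at P6 (log2 fold change 1.14 ± 0.16, adjusted p = 0.000646), where cKO was 2.21-fold higher.

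Of the 7 targets of ATF4 and CHOP, 3 were higher and 4 not called at P1, where 6.54% of all genes tested were higher. At P6, 4 were higher and 1 lower (13.2% and 12.5% of all genes), and at P8 3 were higher and 2 lower (19.6% and 14.8%). *Chac1*, a glutathione-degrading enzyme and a sensitive ATF4 target, stood at 3.32 and 3.93 CPM in P1 WT, 9.93 and 9.20 in P1 cKO, 2.21 and 2.70 in P6 WT, 6.72 and 6.71 in P6 cKO, 8.46 and 8.37 in P8 WT and 11.4 and 11.3 in P8 cKO. Every cKO library exceeded the WT libraries of its age. *Chac1* was 2.63-fold higher at P1 (log2 fold change 1.40 ± 0.14, adjusted p = 0.000226), 2.73-fold higher at P6 (log2 fold change 1.45 ± 0.14, adjusted p = 6.3e-05) and 1.35-fold higher at P8 (log2 fold change 0.43 ± 0.13, adjusted p = 0.03). The P8 call was lost without any 1 of the 4 P8 libraries, where the log2 fold change stayed at 0.43 to 0.44 and the adjusted p reached 0.117.

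*Asns*, asparagine synthetase, stood at 31.8 and 33.6 CPM in P1 WT, 42.8 and 46.0 in P1 cKO, 29.0 and 28.0 in P6 WT, 44.7 and 40.6 in P6 cKO, 81.7 and 85.1 in P8 WT and 80.8 and 86.3 in P8 cKO. The cKO libraries were higher at P1 and P6, and the P8 groups overlapped. The difference was 0.44 ± 0.073 at P1 (adjusted p = 0.0054), 0.58 ± 0.073 at P6 (adjusted p = 0.000368) and 0.00 at P8 (adjusted p = 0.982). *Phgdh*, which catalyses the entry step of serine synthesis, stood at 33.1 and 37.8 CPM in P1 WT, 46.5 and 42.9 in P1 cKO, 45.3 and 47.4 in P6 WT, 79.2 and 65.5 in P6 cKO, 65.5 and 63.5 in P8 WT and 84.3 and 83.3 in P8 cKO. Its groups did not overlap at any age. At P1 *Phgdh* was called higher in cKO by DESeq2 (log2 fold change 0.33, adjusted p = 0.00629) but not by edgeR. It was higher in cKO at P6 (log2 fold change 0.64 ± 0.098, adjusted p = 0.00122) and P8 (log2 fold change 0.38 ± 0.098, adjusted p = 0.015), and the P8 call was lost without any 1 of the 4 P8 libraries (adjusted p up to 0.0811, log2 fold change 0.36 to 0.40). *Psat1*, the next enzyme of serine synthesis, ranged from 60.5 to 116 CPM and was not called at any age. Its P6 cKO libraries (64.6 and 60.5 CPM) lay below its P6 WT libraries (76.9 and 77.9 CPM). With the P6 libraries fitted alone, the P6 difference of *Psat1* was -0.31 (adjusted p = 0.0392, edgeR).

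*Ppp1r15a*, which encodes GADD34, the phosphatase subunit that reverses eIF2α phosphorylation, stood at 51.7 and 54.7 CPM in P1 WT, 65.3 and 71.9 in P1 cKO, 70.0 and 73.4 in P6 WT, 90.7 and 83.3 in P6 cKO, 25.3 and 26.8 in P8 WT and 37.9 and 37.5 in P8 cKO. With *Chac1* it was called higher at all 3 ages. The log2 fold changes were 0.37 (adjusted p = 0.0128) at P1, 0.28 (adjusted p = 0.0191) at P6 and 0.53 (adjusted p = 0.000392) at P8. The P1 call was lost without P1 WT replicate 1 or P1 cKO replicate 2 (0.30 to 0.43, adjusted p up to 0.0946) and the P6 call without P6 WT replicate 1, P6 WT replicate 2 or P6 cKO replicate 1 (0.22 to 0.34, adjusted p up to 0.113).

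Of the targets that were lower, *Ddit4*, an inhibitor of mTORC1, stood at 30.6 and 28.1 CPM in P1 WT, 24.7 and 25.8 in P1 cKO, 35.6 and 45.0 in P6 WT, 28.7 and 28.8 in P6 cKO, 53.2 and 49.7 in P8 WT and 38.3 and 38.0 in P8 cKO. The cKO libraries were below the WT libraries at each age. The difference was called at P6 (log2 fold change -0.49 ± 0.1, adjusted p = 0.00783) and P8 (log2 fold change -0.43 ± 0.1, adjusted p = 0.0109), the latter lost without P8 WT replicate 1 or either P8 cKO library (-0.48 to -0.38, adjusted p up to 0.0694). With the P6 libraries fitted alone, the P6 difference of *Ddit4* was -0.49 (adjusted p = 0.0537, edgeR). *Sesn2*, another stress-induced inhibitor of mTORC1, stood at 71.9 and 77.1 CPM in P1 WT, 83.8 and 81.9 in P1 cKO, 97.3 and 98.6 in P6 WT, 90.3 and 85.6 in P6 cKO, 136 and 125 in P8 WT and 96.4 and 96.6 in P8 cKO. It rose with age in WT, and the P8 cKO libraries lay near the P6 WT level. The difference was called at P8 (log2 fold change -0.44 ± 0.059, adjusted p = 0.000368), not at P1 or P6.

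**Figure D2:**
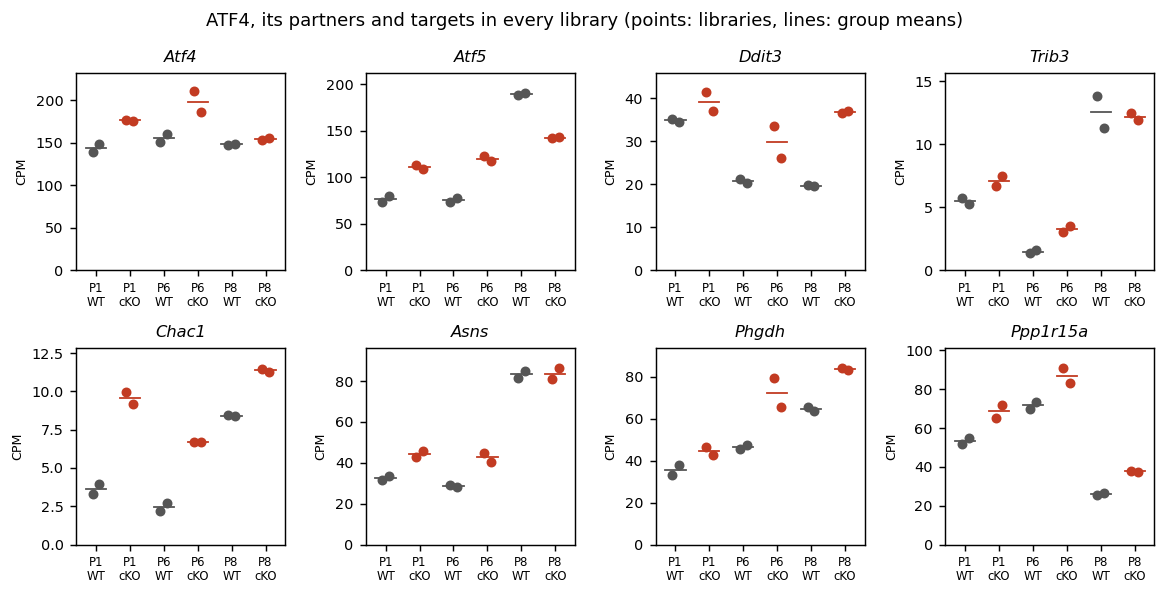
CPM (y axes, starting at 0) of 8 genes of the ATF4 arm in the 6 groups (x axes), with a point for each library and a line at the group mean. *Chac1* and *Ppp1r15a* show both cKO libraries above both WT libraries at each age, and *Atf5* shows the order of the genotypes turned at P8.

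Few chaperones of the ER lumen were called at P1 and P6. Of the 10 genes, 1 was higher at P1 and 2 were higher at P6, beside 6.54% and 13.2% of all genes tested. At P8, 5 were lower, 2 higher and 3 not called, beside 14.8% lower and 19.6% higher of all genes. *Hspa5*, the HSP70 chaperone BiP and the classical readout of ER stress, was not called at any age. It stood at 727 and 721 CPM in P1 WT, 789 and 807 in P1 cKO, 762 and 779 in P6 WT, 800.2 and 790.5 in P6 cKO, 833 and 601 in P8 WT and 725 and 732 in P8 cKO. The P8 WT libraries lay 1.39-fold apart with both cKO libraries between them. At P1 both cKO libraries lay above both WT libraries, and with the P1 libraries fitted alone the difference was 0.14 (adjusted p = 0.0318, edgeR). *Hspa5* was called at P1 when either P8 WT library was left out (0.14, adjusted p = 0.0236 and 0.0233), and at P8 it was called higher in cKO without P8 WT replicate 1 (0.28, adjusted p = 0.000761) and lower without P8 WT replicate 2 (-0.19, adjusted p = 0.00479).

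*Hsp90b1*, the ER form of HSP90 known as GRP94, stood at 855 and 843 CPM in P1 WT, 935 and 908 in P1 cKO, 1020.0 and 1044 in P6 WT, 1038 and 1019 in P6 cKO, 1074 and 1099 in P8 WT and 964 and 973 in P8 cKO. The P1 cKO libraries lay above WT and the P8 cKO libraries below. *Hsp90b1* was 10.9% lower in cKO at P8 (log2 fold change -0.17 ± 0.029, adjusted p = 0.00178). Its rise of 8.47% at P1 (adjusted p = 0.0358) was lost without any 1 of the P1 or P8 libraries (0.10 to 0.14, adjusted p up to 0.204). *Calr* stood at 1063 and 1033 CPM in P1 WT, 1057 and 1083 in P1 cKO, 1220.2 and 1267 in P6 WT, 1196 and 1098 in P6 cKO, 1302 and 1359 in P8 WT and 1116 and 1146 in P8 cKO. Its P8 groups were separated, with cKO 15.0% lower (log2 fold change -0.23 ± 0.045, adjusted p = 0.00294). *Canx*, the membrane-bound partner of calreticulin in glycoprotein folding, stood at 779 and 774 CPM in P1 WT, 778 and 778 in P1 cKO, 914 and 909.7 in P6 WT, 899 and 929 in P6 cKO, 915 and 951 in P8 WT and 828 and 833 in P8 cKO. It differed by less than 1 standard error at P1 and P6 and was lower in cKO at P8 (log2 fold change -0.17 ± 0.03, adjusted p = 0.0019).

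*Hyou1*, a large HSP70-like chaperone and nucleotide exchange factor for BiP, stood at 128 and 132 CPM in P1 WT, 149 and 151 in P1 cKO, 160.5 and 146 in P6 WT, 167 and 152 in P6 cKO, 182 and 186 in P8 WT and 152 and 156 in P8 cKO. It was 16.2% lower in P8 cKO (log2 fold change -0.25 ± 0.06, adjusted p = 0.00958), a call lost without P8 WT replicate 2 or P8 cKO replicate 1 (-0.27 to -0.24, adjusted p up to 0.0652). *Manf*, a secreted trophic factor retained in the ER through BiP, stood at 102 and 100.3 CPM in P1 WT, 121 and 111 in P1 cKO, 112 and 117 in P6 WT, 129 and 112 in P6 cKO, 129.6 and 130.3 in P8 WT and 105 and 105 in P8 cKO. It was 19.0% lower in P8 cKO (log2 fold change -0.30 ± 0.07, adjusted p = 0.00847). For *Hsp90b1*, *Calr*, *Canx*, *Hyou1* and *Manf* alike, P8 WT had the highest of the 6 group means, and the P8 cKO mean lay below that of P6 cKO.

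*Sdf2l1*, an ER co-chaperone component, went the other way at P8. It stood at 27.7 and 27.4 CPM in P1 WT, 26.5 and 25.1 in P1 cKO, 33.0 and 31.4 in P6 WT, 33.8 and 26.5 in P6 cKO, 23.8 and 22.7 in P8 WT and 32.3 and 34.0 in P8 cKO. P8 WT was the lowest group, and cKO was 42.5% higher (log2 fold change 0.51 ± 0.11, adjusted p = 0.00533). *Dnajc3*, the co-chaperone p58IPK and an inhibitor of PERK, stood at 186 and 185 CPM in P1 WT, 195 and 185 in P1 cKO, 216 and 219.9 in P6 WT, 271 and 277 in P6 cKO, 211 and 219 in P8 WT and 207 and 209.6 in P8 cKO. Both P6 cKO libraries exceeded every other library (log2 fold change 0.33 ± 0.04, adjusted p = 0.000267). *Dnajb9*, the BiP co-chaperone ERdj4 and a target of spliced XBP1, stood at 62.8 and 64.6 CPM in P1 WT, 67.1 and 67.3 in P1 cKO, 61.7 and 59.4 in P6 WT, 69.6 and 67.6 in P6 cKO, 49.8 and 51.6 in P8 WT and 56.7 and 56.3 in P8 cKO. Its cKO libraries were above WT at each age by 5.47%, 13.4% and 11.3%. The P6 call (adjusted p = 0.0315) held without either P8 WT library and was lost without any other (0.15 to 0.21, adjusted p up to 0.169), and the P8 call (adjusted p = 0.0472) was lost without any 1 of the 12 libraries (0.13 to 0.18, adjusted p up to 0.207). *Dnajb11* ranged from 128 to 153 CPM and was not called at any age.

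Of the 5 disulphide enzymes, the isomerases *Pdia3*, *Pdia4* and *Pdia6* were lower and the oxidase *Ero1l* higher at P8, and *Creld2* was not called. *Pdia3*, the isomerase that works with calnexin and calreticulin, stood at 776 and 793 CPM in P1 WT, 849 and 825 in P1 cKO, 969 and 996 in P6 WT, 909 and 855 in P6 cKO, 1007 and 996 in P8 WT and 842 and 825 in P8 cKO. It was 10.2% lower in cKO at P6 (log2 fold change -0.16 ± 0.036, adjusted p = 0.0118) and 16.8% lower at P8 (log2 fold change -0.26 ± 0.036, adjusted p = 0.000392). *Pdia4* stood at 249 and 234 CPM in P1 WT, 247 and 265 in P1 cKO, 284 and 278 in P6 WT, 270.0 and 252 in P6 cKO, 319.7 and 339 in P8 WT and 235 and 250.3 in P8 cKO. Its WT level rose with age while the P8 cKO libraries stayed near the P1 values, 26.3% below WT (log2 fold change -0.44 ± 0.058, adjusted p = 0.000311). *Pdia6*, an isomerase that binds BiP and modulates IRE1, stood at 226 and 224 CPM in P1 WT, 240.0 and 229.7 in P1 cKO, 342 and 359.6 in P6 WT, 320.4 and 297 in P6 cKO, 343 and 339 in P8 WT and 247 and 253 in P8 cKO. It was 11.9% lower at P6 (log2 fold change -0.18 ± 0.046, adjusted p = 0.0171) and 26.7% lower at P8 (log2 fold change -0.45 ± 0.046, adjusted p = 6.38e-05).

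*Ero1l*, the oxidase that supplies disulphides to the isomerases and a CHOP target, stood at 84.9 and 91.6 CPM in P1 WT, 107 and 101 in P1 cKO, 79.4 and 73.4 in P6 WT, 88.5 and 95.9 in P6 cKO, 88.6 and 90.9 in P8 WT and 122 and 124 in P8 cKO. The cKO libraries lay above WT at all 3 ages. The difference was 0.23 (adjusted p = 0.0567) at P1, 0.27 (adjusted p = 0.0138) at P6 and 0.45 (adjusted p = 0.00053) at P8. The P6 calls on *Pdia3*, *Pdia6* and *Ero1l* were each lost without P6 WT replicate 2 or P6 cKO replicate 2 (adjusted p up to 0.0565, 0.0937 and 0.101, and log2 fold changes of -0.20 to -0.11, -0.24 to -0.13 and 0.21 to 0.33). *Creld2*, an ER-resident and secreted stress protein, ranged from 27.4 to 38.3 CPM.

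Among the ERAD genes, *Edem1*, which directs misfolded glycoproteins to degradation, stood at 121 and 128 CPM in P1 WT, 119 and 119 in P1 cKO, 167 and 168 in P6 WT, 157 and 163 in P6 cKO, 181 and 167 in P8 WT and 262 and 267 in P8 cKO. Both P8 cKO libraries exceeded every other library, and *Edem1* was 1.52-fold higher than in WT (log2 fold change 0.61 ± 0.05, adjusted p = 1.43e-05). *Sel1l*, the adaptor of the HRD1 ubiquitin ligase, stood at 212 and 221 CPM in P1 WT, 202 and 155 in P1 cKO, 257 and 255 in P6 WT, 257 and 277 in P6 cKO, 193 and 208 in P8 WT and 266 and 266 in P8 cKO. It was higher in cKO at P8 (log2 fold change 0.40 ± 0.1, adjusted p = 0.0135), a call lost without P8 WT replicate 1 or either P8 cKO library (0.35 to 0.46, adjusted p up to 0.0868). *Syvn1*, the ligase HRD1 itself, ranged from 46.5 to 57.5 CPM and was not called. *Herpud1*, an ER membrane component of the HRD1 complex, stood at 33.9 and 34.0 CPM in P1 WT, 38.5 and 34.4 in P1 cKO, 31.8 and 31.5 in P6 WT, 46.8 and 39.4 in P6 cKO, 44.8 and 43.8 in P8 WT and 38.4 and 39.4 in P8 cKO. It was higher in cKO at P6 (log2 fold change 0.44 ± 0.09, adjusted p = 0.00586) and lay below WT without a call at P8 (-0.19, adjusted p = 0.147).

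The 3 sensors each differed at P8, in unlike directions. *Atf6* stood at 86.7 and 92.4 CPM in P1 WT, 91.2 and 90.8 in P1 cKO, 105 and 91.6 in P6 WT, 105 and 114 in P6 cKO, 76.4 and 74.0 in P8 WT and 102 and 108 in P8 cKO. The P8 WT libraries were the lowest of the 12, and P8 cKO was 39.2% higher (log2 fold change 0.48 ± 0.075, adjusted p = 0.000934). *Ern1*, the gene of IRE1, stood at 40.8 and 41.4 CPM in P1 WT, 43.4 and 40.9 in P1 cKO, 34.0 and 37.1 in P6 WT, 35.4 and 39.1 in P6 cKO, 49.2 and 51.0 in P8 WT and 61.8 and 60.1 in P8 cKO. It was 21.7% higher in P8 cKO (log2 fold change 0.28 ± 0.073, adjusted p = 0.0143), a call lost without P8 WT replicate 1 or P8 cKO replicate 1 (0.26 to 0.31, adjusted p up to 0.084). *Eif2ak3*, the gene of PERK, stood at 31.1 and 27.5 CPM in P1 WT, 31.2 and 32.6 in P1 cKO, 40.6 and 43.5 in P6 WT, 51.3 and 49.3 in P6 cKO, 47.9 and 47.7 in P8 WT and 41.9 and 38.0 in P8 cKO. It was higher in cKO at P6 (log2 fold change 0.26 ± 0.081, adjusted p = 0.0432) and lower at P8 (log2 fold change -0.26 ± 0.081, adjusted p = 0.0353). The P6 call was lost without any of 8 libraries, those of P6, P1 cKO and P8 WT (0.21 to 0.30, adjusted p up to 0.196), and the P8 call without either P8 WT library or P8 cKO replicate 2 (-0.33 to -0.19, adjusted p up to 0.214). *Xbp1* was not called. It ranged from 76.9 to 96.8 CPM in 11 libraries and stood at 49.4 CPM in P1 cKO replicate 2, against 85.7 CPM in the other P1 cKO library. Without P1 cKO replicate 1, the log2 fold change at P1 was -0.80 for *Xbp1* and -0.48 for *Sel1l*, values that rest on 1 cKO library. Splicing of *Xbp1*, the step that IRE1 performs, cannot be read from gene counts.

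**Figure D3:**
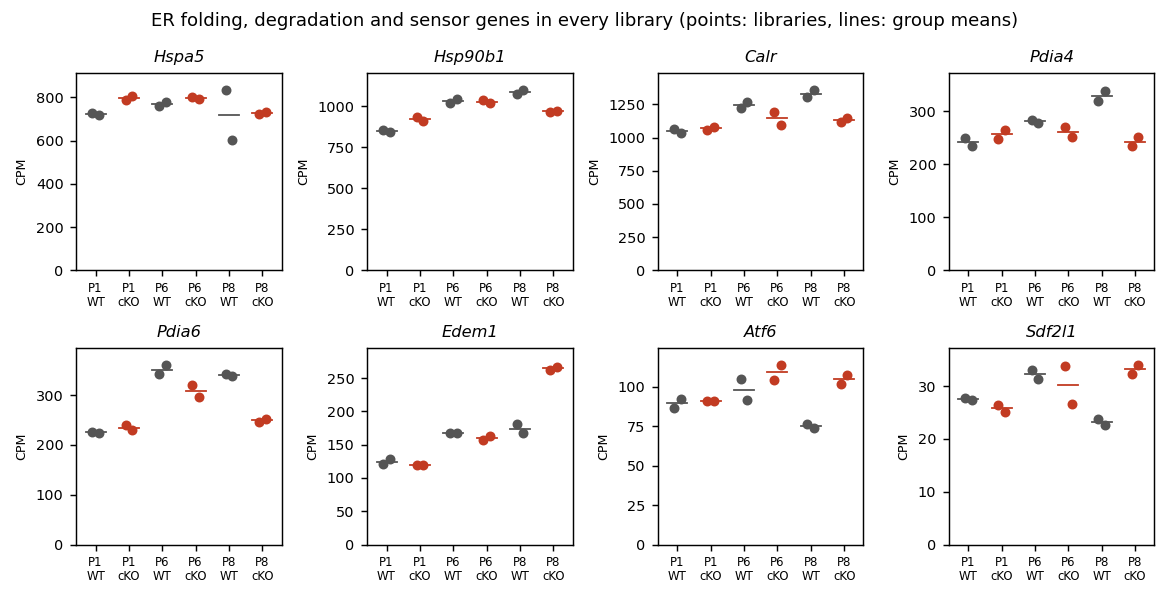
CPM (y axes, starting at 0) of 8 ER folding, degradation and sensor genes in the 6 groups (x axes), with a point for each library and a line at the group mean. At P8 *Hsp90b1*, *Calr*, *Pdia4* and *Pdia6* are lower and *Edem1*, *Atf6* and *Sdf2l1* higher in the libraries labelled cKO, and the P8 WT points of *Hspa5* lie apart at 833 and 601 CPM.

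The inducible cytosolic HSP70 genes *Hspa1a* and *Hspa1b*, activated by HSF1 on heat or proteotoxic stress, changed direction between P1 and P6. *Hspa1a* stood at 6.49 and 5.75 CPM in P1 WT, 7.92 and 10.8 in P1 cKO, 16.3 and 14.6 in P6 WT, 10.7 and 9.15 in P6 cKO, 9.17 and 8.63 in P8 WT and 6.12 and 7.32 in P8 cKO. The cKO libraries lay above WT at P1 and below WT at P6 and P8. The difference was called at P6 (log2 fold change -0.63 ± 0.17, adjusted p = 0.0209), and the call was lost without P6 WT replicate 1 or P6 cKO replicate 2 (-0.75 to -0.53, adjusted p up to 0.122). *Hspa1b* stood at 5.97 and 6.89 CPM in P1 WT, 8.50 and 11.3 in P1 cKO, 17.2 and 17.0 in P6 WT, 14.9 and 9.74 in P6 cKO, 13.3 and 11.8 in P8 WT and 9.77 and 10.6 in P8 cKO. Its order of groups was the same as that of *Hspa1a* at each age without a call at any by edgeR. At P1 both genes passed the study's cut-off. DESeq2 called *Hspa1a* (log2 fold change 0.61, adjusted p = 0.00533) and *Hspa1b* (log2 fold change 0.62, adjusted p = 0.018) higher at P1. The genotype difference shifted downward from P1 to P6 for *Hspa1a* (log2 fold change -1.25 ± 0.24, adjusted p = 0.00698) and for *Hspa1b* (log2 fold change -1.09 ± 0.29, adjusted p = 0.0336), the latter call being lost without any of 8 libraries (-1.43 to -0.82, adjusted p up to 0.106). The transcripts share 1350 windows of 100 bases, 47.1% of those of *Hspa1a* and 49.9% of those of *Hspa1b*, so reads could have been split between them and each value is uncertain.

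Whether the genotype difference itself changed with age was tested by interaction contrasts, and 24 of the 36 genes were called in at least 1 of them, as were 34.7% of all genes tested. Between P6 and P8, the difference shifted downward for 15 genes and upward for 2, against 8.83% and 12.6% of all genes tested. Between P1 and P8 it shifted downward for 15 and upward for 5 (11.7% and 14.0%), and between P1 and P6 downward for 5 and upward for 2 (8.19% and 7.12%). With the study's cut-off, 2 were up and 4 down between P6 and P8 (10.6% and 8.40% of all genes), 4 up and 5 down between P1 and P8 (11.5% and 11.0%), and 1 up and 2 down between P1 and P6 (7.17% and 8.21%). Each pair of these contrasts shares libraries, so they are not independent of each other.

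The 3 largest shifts from P6 to P8 lay in the ATF4 arm. *Trib3* shifted by -1.19 ± 0.21 on the log2 scale (adjusted p = 0.00381), *Atf5* by -1.08 ± 0.077 (adjusted p = 1.47e-05) and *Chac1* by -1.01 ± 0.19 (adjusted p = 0.00462). *Asns* shifted by -0.58 (adjusted p = 0.00366), *Herpud1* by -0.63 (adjusted p = 0.0069) and *Eif2ak3* by -0.52 (adjusted p = 0.0112). Of the 8 genes called higher at P6 and shifted downward by P8, *Asns*, *Chac1*, *Herpud1* and *Trib3* had the CARE core in the 300 bases searched. *Atf4*, *Atf5*, *Dnajc3* and *Eif2ak3* had no match in that stretch, and sequence outside it was not searched. The core was in 4 of the 33 member promoters and in 4.51% of all genes. The members were chosen partly as ATF4 targets and the 8 genes by their calls in these data, so these counts do not test the core. Its part in these shifts was not tested. *Edem1* and *Sdf2l1* shifted upward, by 0.67 (adjusted p = 0.000149) and 0.61 (adjusted p = 0.0205). Called in opposite directions at different ages were *Atf5* and *Eif2ak3* (higher at P6, lower at P8) and *Hsp90b1* (higher at P1, lower at P8). *Ddit3* was the ATF4-arm gene whose difference grew from P1 to P8, by 0.74 (adjusted p = 0.0072).

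**Figure D4:**
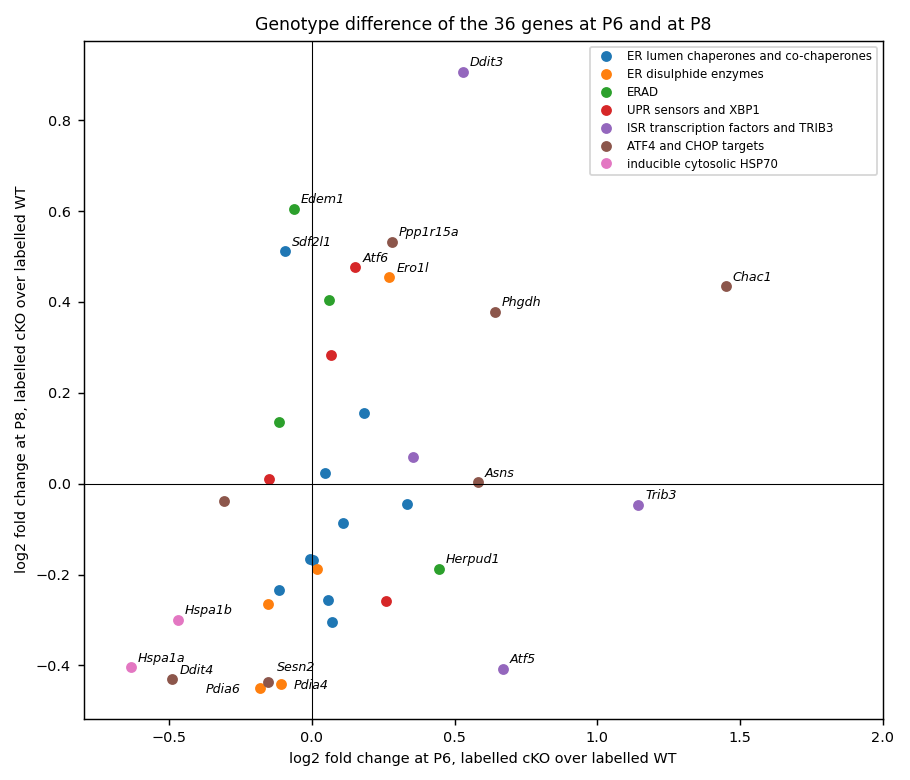
Log2 fold change of the 36 genes, libraries labelled cKO over WT, at P6 (x axis) and at P8 (y axis), coloured by role, with names for genes beyond 0.42 on either axis. *Trib3*, *Asns* and *Herpud1* lie to the right of 0 and near or below 0 on the y axis, *Atf5* lies at the lower right (0.67 and -0.41), and *Ddit3* and *Chac1* lie above 0 on both axes.

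Several of the genes also changed with age within a genotype. Within WT, 17 genes were higher and 5 lower at P6 than at P1 (20.7% and 19.2% of all genes tested), and 12 were higher and 6 lower at P8 than at P6 (16.2% and 19.0%). Within cKO, 10 were higher and 3 lower at P6 (19.7% and 18.7%), and 9 were higher and 10 lower at P8 (20.0% and 19.2%). With the study's cut-off, the counts in WT were 3 higher and 2 lower at P6 (13.6% and 12.2%) and 4 higher and 2 lower at P8 (10.5% and 11.4%), and in cKO 2 higher and 1 lower at P6 (12.5% and 11.6%) and 6 higher and 1 lower at P8 (13.1% and 13.5%). Ages are separate cultures from separate mice, and age and culture cannot be told apart.

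*Trib3* had the widest range. It was lower at P6 than at P1 by -1.89 ± 0.16 in WT and -1.11 ± 0.15 in cKO (log2, adjusted p = 1.27e-05 and 0.000355), and higher at P8 than at P6 by 3.08 ± 0.16 and 1.90 ± 0.15 (adjusted p = 8.4e-07 and 8.99e-06). *Chac1* followed the same course, with -0.56 and then 1.78 in WT and -0.51 and then 0.76 in cKO. *Asns* rose from P6 to P8 by 1.55 (adjusted p = 5.02e-07) in WT and 0.97 (adjusted p = 6.13e-06) in cKO. *Ppp1r15a* moved against these targets. It was higher at P6 than at P1 by 0.43 in WT and 0.34 in cKO and lower at P8 by -1.46 (adjusted p = 6.51e-07) and -1.21 (adjusted p = 1.44e-06). *Atf5* rose from P6 to P8 by 1.32 (adjusted p = 2.19e-07) in WT and by 0.25 (adjusted p = 0.00554) in cKO.

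Some folding genes rose from P1 to P6 in WT. Of the 10 chaperones 5 were higher and 5 were not called, and of the 5 disulphide genes 3 were higher and 1, *Ero1l*, was lower. Over all genes tested, 20.7% were higher and 19.2% lower at this step. *Pdia6* rose by 0.64 (adjusted p = 4.86e-06) and *Pdia3* by 0.32 (adjusted p = 9.1e-05). From P6 to P8 in cKO, 4 chaperones and 2 disulphide genes were lower, beside 19.2% of all genes tested. Among them were *Dnajc3* (-0.40 (adjusted p = 3.97e-05)) and *Pdia6* (-0.31 (adjusted p = 0.000595)). *Edem1* rose in cKO at both steps, by 0.43 (adjusted p = 0.000132) and 0.72 (adjusted p = 3.28e-06), and *Ern1* rose from P6 to P8 in both genotypes, by 0.50 (adjusted p = 0.000693) in WT and 0.71 (adjusted p = 4.79e-05) in cKO. In WT *Hspa1a* and *Hspa1b* rose from P1 to P6 by 1.33 (adjusted p = 0.000217) and 1.41 (adjusted p = 0.000546). The summed fibroblast markers of the WT libraries stood at 357 to 370 CPM at P1 and 25793 to 25934 CPM at P8, and their part in these changes was not tested.

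**Figure D5:**
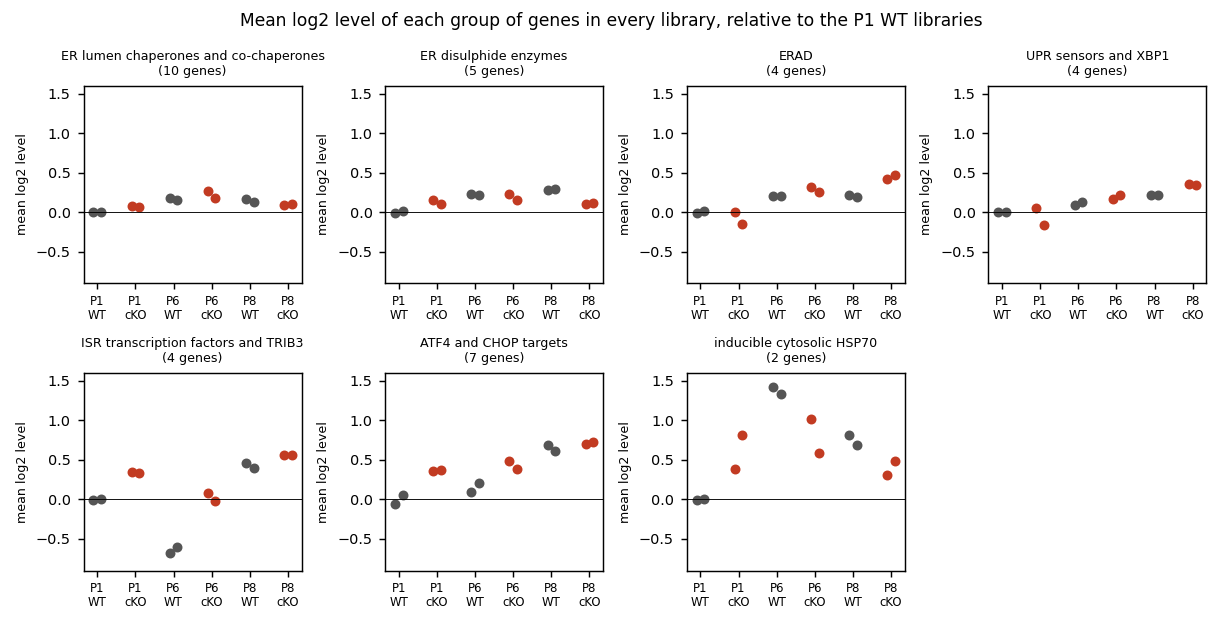
Mean log2 level of the genes of each role in each library (y axes), relative to the mean of the P1 WT libraries, in the 6 groups (x axes), with grey points for WT and red points for cKO. The ATF4-arm regulators are lowest in P6 WT (-0.68 and -0.60), and the chaperones of the ER lumen stay between -0.0038 and 0.27 in every library.

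Other genes of the same pathways were read from 6 lists holding 87 genes of the table. Of these, 19 were higher and 1 lower in cKO at P1, beside 6.54% and 2.94% of all genes tested. At P6, 18 were higher and 14 lower (13.2% and 12.5% of all genes), and at P8 16 were higher and 18 lower (19.6% and 14.8%). The counts for each list below stand beside the same shares. Among 14 other ER chaperone and translocon genes, 4 were higher and 1 lower at P1, 1 higher and 4 lower at P6, and 2 higher and 7 lower at P8. *Kdelr2* and *Kdelr3*, receptors that return chaperones to the ER, were higher at P1 (0.26 (adjusted p = 0.0156) and 0.54 (adjusted p = 0.0113)) and lower at P8 (-0.55 (adjusted p = 4.04e-05) and -0.74 (adjusted p = 0.000445)), and *Kdelr2* was also lower at P6 (-0.49 (adjusted p = 0.000146)). The isomerase gene *Pdia5* fell by 0.89 on the log2 scale at P8 (adjusted p = 0.000149). *Ssr1*, a translocon subunit, was lower at P6 (-0.36 (adjusted p = 0.00184)). *Sil1*, a nucleotide exchange factor for BiP, was higher at P6 (0.39 (adjusted p = 0.0105)). *Serp1*, which stabilises membrane proteins in the ER, was lower at P1 (-0.31 (adjusted p = 0.0009)) and higher at P8 (0.15 (adjusted p = 0.0141)). *Ero1lb*, the paralogue of *Ero1l*, was higher at P8 (0.56 (adjusted p = 0.00608)).

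Among the other ERAD genes, *Edem2*, like *Edem1*, was higher at P8 (0.43 (adjusted p = 0.00252)), and the lectin gene *Erlec1* was lower (-0.24 (adjusted p = 0.0287)). Of 8 other transducers, 2 were higher at P1, 2 higher and 2 lower at P6, and 1 higher and 2 lower at P8. *Creb3l1*, an ER-bound transcription factor relevant to collagen secretion, was higher at P1 (0.63 (adjusted p = 0.00031)) and lower at P6 (-0.74 (adjusted p = 3.96e-05)) and P8 (-0.23 (adjusted p = 0.0226)). The summed fibroblast markers also took these directions, and their part in the *Creb3l1* values was not tested. *Creb3l2*, a relative of *Creb3l1*, was higher at P1 (0.46 (adjusted p = 0.000786)) and at P6 (0.40 (adjusted p = 0.000579)). The summed fibroblast markers were higher at P1 and lower at P6, and their part in the *Creb3l2* values was not tested. *Creb3* was higher (0.27 (adjusted p = 0.0166)) and *Atf6b* lower (-0.24 (adjusted p = 0.0313)) at P6. The Golgi protease genes that release ATF6 parted at P8, *Mbtps1* being lower (-0.44 (adjusted p = 0.000107)) and *Mbtps2* higher (0.37 (adjusted p = 0.0205)). Of 10 genes of the eIF2 kinases, eIF2B and the constitutive phosphatase, 1 was lower at P6 and 2 higher at P8. They were *Ppp1r15b* (-0.29 (adjusted p = 0.00295)), and *Eif2ak2* (0.37 (adjusted p = 0.036)) and *Eif2s1* (0.26 (adjusted p = 0.00342)).

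Of 31 other ATF4 and CHOP targets, 12 were higher at P1, 10 higher and 5 lower at P6, and 6 higher and 5 lower at P8. *Stc2*, a secreted glycoprotein gene, was higher at all 3 ages (1.27 (adjusted p = 0.00715), 1.20 (adjusted p = 0.00309) and 1.56 (adjusted p = 0.000362)). *Nupr1*, a stress-induced chromatin protein, was higher at P1 (0.87 (adjusted p = 0.0438)). *Gdf15*, a secreted stress cytokine, was higher at P6 (1.26 (adjusted p = 0.000177)) and P8 (1.97 (adjusted p = 7.71e-06)), and *Vldlr* was higher at P6 (1.49 (adjusted p = 1.63e-06)). *Atf3* stood at 14.6 and 16.0 CPM in P8 WT and 55.4 and 59.2 in P8 cKO and was 3.75-fold higher in cKO at that age.

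Median log2 fold changes of that list at the 3 ages were 0.25, 0.13 and -0.12, and the named genes that were lower belong to amino acid transport and synthesis. *Slc7a11*, the cystine-glutamate antiporter and an ATF4 target, stood at 50.2 and 49.3 CPM in P1 WT, 78.6 and 72.9 in P1 cKO, 278 and 251 in P6 WT, 10.7 and 12.2 in P6 cKO, 495 and 498 in P8 WT and 74.7 and 83.7 in P8 cKO. It was higher in cKO at P1 and lower at P6 and P8, by -4.53 ± 0.093 and -2.65 ± 0.084 (adjusted p = 5.57e-09 and 3.87e-08). *Slc38a2*, a neutral amino acid transporter, stood at 668 and 709 CPM in P8 WT and 189 and 185 in P8 cKO and fell by 1.88 on the log2 scale at P8 (adjusted p = 1.05e-08). *Pycr1*, of proline synthesis, was lower at P6 (-1.42 (adjusted p = 0.00649)) and P8 (-1.79 (adjusted p = 0.00106)). The summed fibroblast markers were also lower in cKO at P6 and P8, and their part in these values was not tested.

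Of 13 other cytosolic heat shock genes, 1 was higher at P1, 4 higher and 2 lower at P6, and 3 higher and 3 lower at P8. *Hspb1*, a small heat shock protein gene, was higher at all 3 ages (1.13 (adjusted p = 0.000222), 0.79 (adjusted p = 0.000576) and 0.92 (adjusted p = 0.000159)). *Hspa4l* was higher at P6 (0.57 (adjusted p = 0.000256)) and P8 (0.43 (adjusted p = 0.00091)). *Dnajb1*, the main HSP40 partner of HSP70, was lower at P6 (-0.61 (adjusted p = 0.000559)) and P8 (-0.33 (adjusted p = 0.0136)), as was *Hsph1* (-0.21 (adjusted p = 0.0448) and -0.64 (adjusted p = 7.01e-05)).

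Markers of cell types moved with genotype beside these genes. Of the 8 fibroblast markers, 7 were higher in cKO at P1 and 7 lower at P6 and at P8. Of the 10 microglia markers, 8 were lower at P1, 1 was higher and 2 lower at P6, and 7 were higher and 1 lower at P8, and their summed level at P8 was 3432 to 3574 CPM in WT and 6048 to 6074 CPM in cKO. Of the 10 astrocyte markers, 2 were higher and 2 lower at P1, 1 higher and 3 lower at P6, and 1 higher and 8 lower at P8, where their sum was 1910 to 2302 CPM in WT and 971 to 975 CPM in cKO. Of 4 mural markers, 3 were higher at P1, 2 higher and 2 lower at P6, and 2 higher and 1 lower at P8. Of 5 proliferation genes 3 were lower at P1, 3 at P6 and 2 at P8. Of 4 endothelial markers, 2 were higher at P1, 3 lower at P6, and 1 higher and 2 lower at P8. Of 7 oligodendrocyte-lineage markers, 1 was higher at P1, 3 were lower at P6, and 2 were higher and 3 lower at P8. Of 2 neuronal markers, 1 was higher at P1 and at P6 and both at P8. The part of these markers in the differences of the 36 genes was not tested.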

How the data were processed

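Raw gene counts for the 12 libraries were taken as the authors deposited them. Reads had been mapped to the mouse genome (GRCm38, mm10 per the labels) with HISAT2, with the counting program, annotation and use of strand not given in the sources used here. No column was left unmapped, and no row lacked a gene.

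Counts were fitted with edgeR 4.0.16 (R 4.3.3) over all 12 libraries, with TMM scaling, filterByExpr (17938 of 18903 genes kept) and 1 mean for each of the 6 groups. The quasi-likelihood test was applied to 10 contrasts, namely cKO against WT at each age, each age step within a genotype, and the interactions of genotype and age. P-values were adjusted (Benjamini-Hochberg) over all genes tested, and calls were made below 0.05. CPM values used TMM-scaled library sizes. The fitting steps were also run on counts simulated from the fitted dispersions, with changes planted in P8 cKO alone. That setting differs from these data, where genes changed at each age, so it does not test the calls made here. Labels name the replicates as biological without naming animals, so p-values measure the spread between these libraries. Replicate numbers did not pair libraries across groups.

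The 36 genes and all lists were chosen with earlier results of these data known. Members called in a genotype or interaction contrast were given in every library, and from each other list the 2 genes with the largest called change in each direction at each age were named, of genes averaging 1 CPM or more. A gene of the ERAD list is not reported here. Alternatives were DESeq2 1.42.0 (test and size factors), no filter, a replicate block, the compared ages alone, the study's cut-off, and removal of each library.

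Promoter sequences came from RefSeq (GRCm38.p6). *Ero1l* was matched as *Ero1a*. *Atf6*, *Hyou1* and *Manf* had no entry in the table used here. Gene positions and exon overlaps came from a GENCODE annotation of GRCm38.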

Additional observations from a re-analysis of the deposited data

Results flagged for a closer look

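For 24 of the 36 genes, the log2 fold change of cKO over WT differed between ages in at least 1 interaction contrast (edgeR's quasi-likelihood test, adjusted over all genes tested), which gave 44 such differences, beside 34.7% of all genes tested with at least 1. Each value below is the fold change at the later age minus that at the earlier age, on the log2 scale, so a negative value is a lower cKO over WT ratio at the later age. The 3 interactions share libraries and are not separate pieces of evidence. Of the 44 differences, 24 passed whichever single library was left out and 20 did not.

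Between P1 and P6 the cKO over WT difference moved down for the cytosolic HSP70 genes *Hspa1a* (-1.25) and *Hspa1b* (-1.09), for the stress-induced mTORC1 regulator *Sesn2* (-0.31) and for the disulfide isomerases *Pdia3* (-0.25) and *Pdia6* (-0.24). It moved up for the pseudokinase gene *Trib3* (0.78) and the ER co-chaperone gene *Dnajc3* (0.30). The calls of *Pdia6*, *Trib3*, *Sesn2* and *Hspa1b* were each lost on removal of any of 8 or 9 libraries.

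Between P6 and P8 it moved down for 8 genes among the ATF4 arm, its targets, ERAD and the sensors, namely *Trib3* (-1.19), *Atf5* (-1.08), *Chac1* (-1.01), *Herpud1* (-0.63), *Asns* (-0.58), *Eif2ak3* (-0.52), *Atf4* (-0.29) and *Sesn2* (-0.28). It also moved down for the ER folding genes *Dnajc3* (-0.38), *Manf* (-0.37), *Pdia4* (-0.33), *Hyou1* (-0.31), *Pdia6* (-0.27), *Canx* (-0.17) and *Hsp90b1* (-0.16). The ER-associated degradation gene *Edem1* (0.67) and the ER chaperone-complex gene *Sdf2l1* (0.61) moved up. The call of *Atf4* was lost on removal of any of 11 libraries, that of *Sesn2* of any of 8, those of *Hyou1* and *Manf* of any of 6 each, and those of *Hsp90b1*, *Canx*, *Pdia4*, *Sdf2l1* and *Pdia6* of any of 3 or 4.

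Between P1 and P8 it moved down for *Hspa1a* (-1.02), *Chac1* (-0.96), *Atf5* (-0.94), *Hspa1b* (-0.92), *Sesn2* (-0.59), *Pdia4* (-0.52), *Pdia6* (-0.51), *Manf* (-0.50), *Hyou1* (-0.46), *Asns* (-0.44), *Eif2ak3* (-0.38), *Pdia3* (-0.36), *Hsp90b1* (-0.28), *Calr* (-0.26) and *Canx* (-0.17). It moved up for *Ddit3* (0.74), *Sel1l* (0.68), *Edem1* (0.67), *Sdf2l1* (0.60) and the ER stress sensor *Atf6* (0.45). The calls of *Asns* and *Hspa1a* were lost without P8 cKO replicate 1 alone, and that of *Hspa1b* on removal of any of 9 libraries. Those of *Calr*, *Sdf2l1*, *Canx* and *Eif2ak3* were lost on removal of any of 2, 3, 4 and 6 libraries. The causes of these differences were not tested.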

How the results depend on the processing

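With 2 libraries a group, counts of called genes moved with single libraries and with the tool. Called genes at P1 ranged from 3 to 10 higher (lowest without P1 WT replicate 1 or P1 cKO replicate 2, highest without either P6 cKO library) and 0 to 2 lower (2 without P1 cKO replicate 1). At P6 they ranged from 9 to 12 higher and 1 to 6 lower (1 without P6 cKO replicate 2, 2 without P6 WT replicate 2). At P8 they ranged from 6 to 10 higher (6 without P8 cKO replicate 1, 7 without P8 WT replicate 1 or P8 cKO replicate 2) and 10 to 12 lower, with the median log2 fold change from -0.145 (without P8 WT replicate 2) to -0.0427. Within WT the ranges were 2 to 6 lower from P1 to P6 (2 without P1 WT replicate 2, 3 without P6 WT replicate 1). Within cKO they were 9 to 16 higher (16 without P6 cKO replicate 2) and 1 to 3 lower (1 without P1 cKO replicate 1) from P1 to P6, with a median of 0.0442 (without P6 cKO replicate 1) to 0.175, and 6 to 14 lower from P6 to P8, with a median of -0.0896 to 0.00450 (both 6 and 0.00450 without P6 cKO replicate 1). Interactions ranged from 1 to 3 up and 2 to 6 down between P1 and P6 (1 up without any of 6 libraries and 2 or 3 down without any of 8), and from 1 to 4 up and 7 to 16 down between P6 and P8 (7 without P8 cKO replicate 1, 9 without P8 cKO replicate 2; 4 up without P8 WT replicate 1 and 1 up without P6 WT replicate 1, P8 WT replicate 2 or P8 cKO replicate 2), with a median of -0.163 to -0.0760 (without P6 cKO replicate 1). Of 46 genotype calls, 28 passed whichever library was left out. *Hspa5* reversed with single P8 WT libraries. Its log2 fold change at P8 was 0.28 without replicate 1 and -0.19 without replicate 2, and the change in its genotype difference from P6 to P8 was 0.23 and -0.24.

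DESeq2 called 12 genes higher and 1 lower at P1 (edgeR 6 and 0) and 4 interactions up between P1 and P6 (edgeR 2). Fitting only the compared ages left 8 higher and 2 lower at P6, 3 lower from P1 to P6 in WT, and 1 up and 2 down for the interaction of P1 and P6. The study's cut-off, an unadjusted p below 0.05 with a 1.5-fold change, left 3 higher at P1 (1 with the adjusted p). With either p it left 4 higher and 1 lower at P6, 2 higher and 0 lower at P8, 3 higher and 2 lower from P1 to P6 and 4 higher and 2 lower from P6 to P8 in WT, 2 higher and 1 lower from P1 to P6 and 1 lower from P6 to P8 in cKO, 1 up and 2 down for the interaction of P1 and P6, 4 down for that of P6 and P8 and 5 down for that of P1 and P8. Both cut-offs require larger changes by construction, and for the other settings the cause was not tested. Libraries with the same replicate number did not deviate together across groups (correlations from -0.0396 to 0.0908 over 15 pairs of groups), so the numbers do not pair them. A replicate block left 1 up and 2 down for the interaction of P1 and P6, and 4 of 46 genotype and 8 of 44 interaction calls were not made under it. DESeq2's size factors moved the median of all genes by at most 0.028 on the log2 scale.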
